A study of Homo sapiens with 6 samples.

Results

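The genes described here are 161 Ensembl identifiers of human gene families that spread through segmental duplication: NBPF, NPIP, GOLGA6 and GOLGA8, PMS2P, GTF2IP, GTF2IRD2, STAG3L, TBC1D3, SMG1P and PDPK2P. A pattern of gene symbols picked them from 60856 features, of which 42028 carried an identifier with a symbol. The families in that pattern were chosen with earlier results of these data known. The 161 identifiers carry 159 symbols, because NPIPA9 and GOLGA8M each have a pair of identifiers. TBC1D30, TBC1D31 and TBC1D32 matched the symbol pattern only by its first letters and are not copies of TBC1D3, so they were counted as members, reported by value and kept out of the TBC1D3 sum. The samples were Jurkat cells, an established human leukemic T cell line labelled wild type. The DMSO group (3 libraries) received 0.1% dimethyl sulfoxide, the vehicle, and the BPAF group (3 libraries) received 1 µM bisphenol AF, a fluorinated analogue of bisphenol A, under a title that concerns estrogen signalling and an inflammatory response. No percentage of dimethyl sulfoxide was given for the BPAF group. The exposure lasted 12 h by the sample labels and the design text but 24 h by the treatment protocol. All samples came from 1 cell line, and the design text calls the libraries biological replicates without naming separate cultures, so p-values measure the spread between these libraries.

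Segmental duplications are long blocks of nearly identical DNA that sit at several places in the genome. In apes and humans a few "core" sequences recur within these blocks, and the families listed above are carried by them. NBPF genes hold repeats of a domain now called Olduvai, NPIP genes encode nuclear pore complex interacting proteins, GOLGA6 and GOLGA8 genes resemble the golgin GOLGA2, and TBC1D3 is a hominoid TBC domain gene. The remaining families are mostly transcribed partial copies of single-copy parent genes: PMS2 (mismatch repair), GTF2I (the transcription factor TFII-I), STAG3 (meiotic cohesin), SMG1 (a kinase of nonsense-mediated decay) and PDPK1 (a kinase upstream of AKT). Since the copies are so alike, a short read often matches several of them, and a value for 1 copy depends on how such reads were assigned.

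Library totals ran from 20253656 to 22617613 counts. All 16 T cell markers reached at least 1 TPM (a level scaled for gene length and library total), with a summed level of 4886 to 5177 TPM in DMSO and 5080 to 5229 TPM in BPAF. The summed markers of B cells, erythroid, myeloid, epithelial cells and fibroblasts each stayed under 100 TPM in every library. The erythroid sum was the highest of these, at 77.8 to 91.25 TPM in DMSO and 68.11 to 97.46 TPM in BPAF, mostly from HBA1 and HBB. The B cell sum was 21.12 to 24.61 TPM in DMSO and 19.62 to 22.77 TPM in BPAF, mostly from CD79A. Among the T cell markers, CD28 was at 18.04 to 20.97 TPM. In libraries of pooled cells, fewer cells of a type and less RNA per cell cannot be told apart.

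Of the 161 members, 84 had enough counts to be tested, 48 had some counts but were filtered out, and 29 were at 0 in every library. The untested members had few counts, at most 0.462 CPM (counts scaled so that libraries of different depth compare) on average. One of them, GTF2IRD2P1, was nonetheless listed at 19.4 TPM on average, from 42 counts in all, and the other untested members were under 5 TPM. Among the 84 tested members, 23 rose with BPAF and 0 fell at an adjusted p under 0.05 (edgeR quasi-likelihood test, Benjamini-Hochberg over all 15490 tested features). That is 27.4% of the tested members, where 2.65% of all tested features rose and 3.40% fell. The count of 0 falls compares with 1 member of 38 at an unadjusted p under 0.05 that was lower, and 37 that were higher. Over all features, 3076 of 15490 had an unadjusted p under 0.05, in either direction. DESeq2 and limma-voom likewise called 0 members lower. The log2 fold change was above 0 in 71 of 84 members, with a median of 0.18 against 0.0019 over all features. All 3 BPAF libraries lay above all 3 DMSO libraries for 37 members (44.0%, against 12.0% of all features), and all 3 lay below for 2 members (against 12.8%).

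The rises were small. The 23 called members rose by 1.12-fold to 1.62-fold, with a median of 1.24-fold, and in all 23 the groups did not overlap. Of the 19 tested members that share exons on their strand with another gene, 11 were among the 23. Reads from such exons could belong to either gene, so the 23 calls are not all separate. Only 6 of the 23 had neither such an overlap nor a gene on the opposite strand. Of the 42 tested members with at least 10 TPM on average, 40 had a log2 fold change above 0 and 19 rose. By level, 21 of 47 members with at least 10 CPM rose (44.7%), against 3.06% of the 9770 other features in that range. Under 10 CPM 2 of 37 members rose (5.41%), where 2.65% of all tested features, at any level, rose. Leaving out each library in turn left 10 of the 23 calls in all 6 fits. The number of called members was 11 without DMSO replicate 1, 12 without BPAF replicate 1 and 13 without BPAF replicate 3, and the other fits gave 17 to 19. Limma on the log2 of the deposited TPM called 0 members with either pseudocount, with 33 members at an unadjusted p under 0.05, and there it called at most 2 features in the whole table. Of all 15490 features, 2699 had an unadjusted p under 0.05 there with a pseudocount of 1, and 2666 with 0.1.

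**Figure D1:**
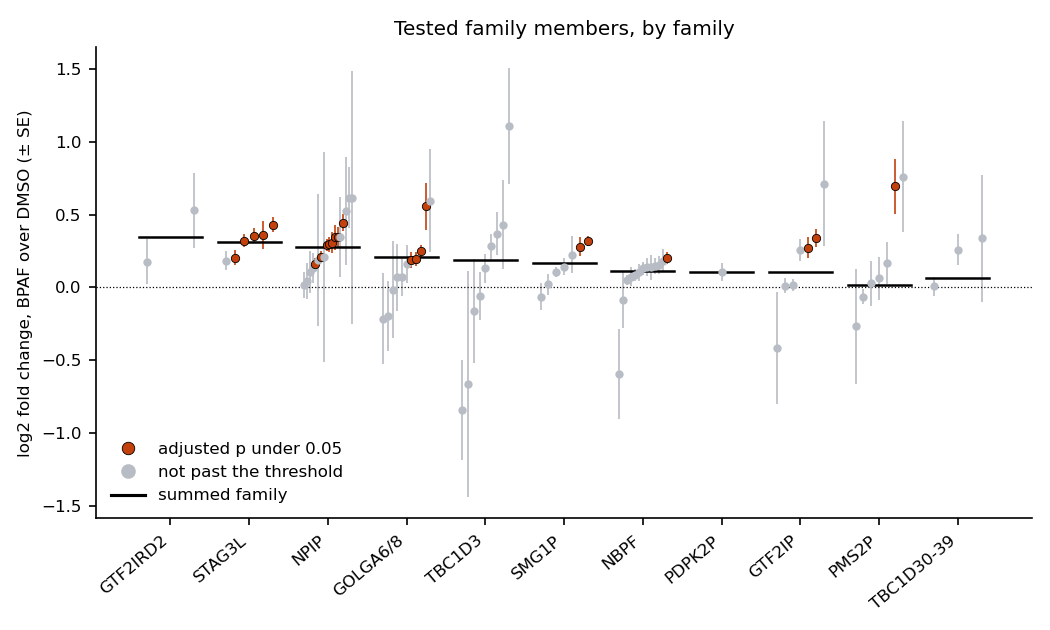
Log2 fold change of BPAF over DMSO (vertical axis, ± SE) for each of the 84 tested members, grouped by family on the horizontal axis, with a black line at the value of the summed family. The 23 orange points passed the threshold and all lie above 0, and the widest error bars belong to points that did not pass, above 0 as well as below.

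Summed over all families (158 members, without TBC1D30, TBC1D31 and TBC1D32), the level was 2779, 2733 and 2827 CPM in the DMSO libraries and 3213, 3135 and 3237 CPM in the BPAF libraries. The groups did not overlap, and the sum was 0.20 (SE 0.03) higher on the log2 scale. A sum does not depend on how reads were shared out among the copies within it. It can still depend on how reads were shared with genes outside it. Of the transcript sequence of GTF2IP1, 6.66% occurred in no other gene and 41.0% was shared within its family. These values were 40.7% and 0% for PDPK2P, and 16.1% and 17.2% for STAG3L5P-PVRIG2P-PILRB, a readthrough gene in the STAG3L sum. For NPIPB3, by contrast, they were 3.20% and 96.8%. The summed members took 0.271% to 0.277% of all counts in DMSO and 0.316% to 0.329% in BPAF. By family, the log2 fold change of the sum was 0.31 (SE 0.03) for STAG3L, 0.28 (SE 0.03) for NPIP, 0.21 (SE 0.03) for GOLGA6 and GOLGA8, 0.19 (SE 0.05) for TBC1D3, 0.17 (SE 0.03) for SMG1P, and 0.11 (SE 0.03) for both NBPF and GTF2IP. In each of these 7 sums all BPAF libraries lay above all DMSO libraries. The sums of PMS2P (0.02, SE 0.04), PDPK2P (0.11, SE 0.06) and GTF2IRD2 (0.35, SE 0.13) had overlapping groups. Family sums are described without a test.

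**Figure D2:**
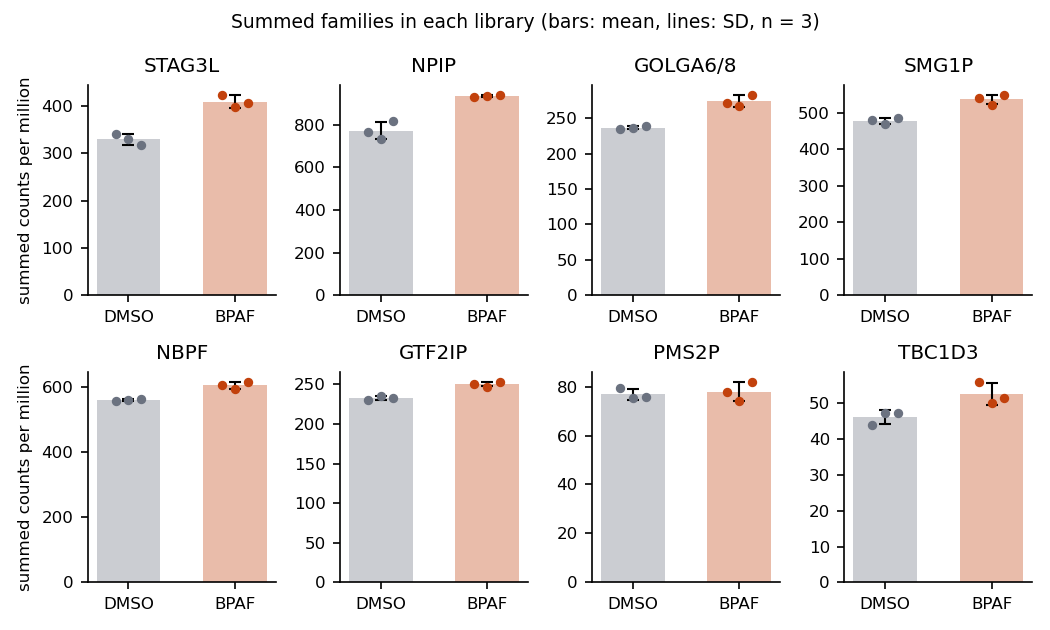
Summed CPM of 8 families (vertical axes, starting at 0) in the DMSO and BPAF libraries, with points for libraries, bars for means and lines for the SD (n = 3). The groups are apart in every panel except PMS2P.

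The STAG3L genes lie on chromosome 7, and 5 of 6 rose. The readthrough gene STAG3L5P-PVRIG2P-PILRB is counted among both the 6 and the 5, and the others are partial copies of STAG3. That readthrough gene held on average 30% of the family's counts in DMSO and 27.8% in BPAF. The STAG3L sum is thus not made of partial copies alone. STAG3L1 (chr7:75359194-75395383, plus strand, GRCh38, a transcribed unprocessed pseudogene) had the largest rise of the family. It measured 78.0, 67.1 and 67.0 CPM in DMSO and 97.2, 94.7 and 94.5 CPM in BPAF. Its log2 fold change was 0.43 (SE 0.05, adjusted p = 2.26e-04). STAG3L2 (chr7:74882163-74890610, minus strand) went from 69.1 ± 4.15 to 88.4 ± 5.85 CPM (SD, n = 3), which was 0.35 higher on the log2 scale (SE 0.05). STAG3L3 (chr7:72969696-73005922, minus strand) went from 55.6 ± 2.67 to 69.6 ± 2.09 CPM, which was 0.32 higher on the log2 scale (SE 0.05). These 3 calls held whichever library was left out. STAG3L5P (chr7:100336079-100351900, plus strand) went from 12.1 ± 1.41 to 15.6 ± 0.876 CPM, which was 0.36 higher on the log2 scale (SE 0.10, adjusted p = 0.0282). It shares exons on the same strand with the readthrough gene STAG3L5P-PVRIG2P-PILRB, which rose by 0.21 (SE 0.05) from 98.9 ± 7.19 CPM. Summed, that pair measured 107, 120 and 106 CPM in DMSO and 137, 127 and 125 CPM in BPAF. Both of those calls were lost without DMSO replicate 1, DMSO replicate 3 or BPAF replicate 1 (adjusted p = 0.0689 to 0.138). The STAG3L5P call was also lost without BPAF replicate 3 (adjusted p = 0.107), and the readthrough call without BPAF replicate 2 (adjusted p = 0.0727). STAG3L4, whose transcripts share almost no stretch with the other copies, measured 24.0, 22.7 and 23.5 CPM in DMSO and 27.7, 26.6 and 25.4 CPM in BPAF. Its groups did not overlap, and its log2 fold change of 0.19 (SE 0.07) had an adjusted p of 0.101. STAG3 itself was 0.16 (SE 0.05) higher, at an adjusted p of 0.0696.

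How alike these copies are can be seen in a 90-base stretch of a STAG3 coding exon and its counterparts. Among stretches that lie within 1 exon in every gene listed, the one with the most distinct versions was taken. STAG3L4 has no such counterpart. Capitals mark bases that differ from STAG3, and every sequence is written 5′ to 3′ on the strand of its gene. STAG3 lies at chr7:100182732-100182821 (plus), STAG3L1 at chr7:75361981-75362070 (plus), STAG3L2 at chr7:74887701-74887790 (minus), STAG3L3 at chr7:73003039-73003128 (minus) and STAG3L5P at chr7:100338782-100338871 (plus), in GRCh38 with GENCODE release 29 transcripts.
STAG3: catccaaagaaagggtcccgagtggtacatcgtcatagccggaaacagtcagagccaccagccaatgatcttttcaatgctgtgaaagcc
STAG3L1: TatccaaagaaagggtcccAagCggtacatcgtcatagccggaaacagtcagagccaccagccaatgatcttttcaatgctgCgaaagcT
STAG3L2: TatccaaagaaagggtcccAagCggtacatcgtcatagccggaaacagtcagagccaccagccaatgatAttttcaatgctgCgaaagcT
STAG3L3: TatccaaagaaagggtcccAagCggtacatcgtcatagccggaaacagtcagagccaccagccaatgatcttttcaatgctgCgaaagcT
STAG3L5P: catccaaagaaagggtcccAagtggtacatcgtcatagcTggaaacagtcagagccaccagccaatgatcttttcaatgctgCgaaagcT
STAG3L1 and STAG3L3 had the same 90 bases, which differed from STAG3 at 5 positions. STAG3L2 differed at 6 positions and STAG3L5P at 4. A read from within this stretch could not separate STAG3L1 from STAG3L3, and both of those copies rose.

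The GTF2IP genes are copies of GTF2I, and 2 of 7 tested rose. GTF2IP20 (chr1:223951394-223992594, minus strand) measured 32.8, 36.3 and 29.7 CPM in DMSO and 42.6, 41.1 and 41.3 CPM in BPAF. Every BPAF library was above every DMSO library, and its log2 fold change was 0.34 (SE 0.06, adjusted p = 0.00331). GTF2IP12, on chromosome 4, measured 20.7, 19.4 and 20.5 CPM in DMSO and 23.9, 25.9 and 23.5 CPM in BPAF, a log2 fold change of 0.27 (SE 0.07, adjusted p = 0.0238). GTF2IP13, on chromosome 7 but far from the other chromosome 7 copies, measured 16.2, 16.6 and 15.7 CPM in DMSO and 20.5, 18.5 and 18.9 CPM in BPAF. Its groups did not overlap either, and its log2 fold change of 0.26 (SE 0.08) had an adjusted p of 0.052. By contrast, GTF2IP1 (chr7:75185385-75237696, minus strand) measured 75.4, 84.2 and 85.6 CPM in DMSO and 79.9, 79.7 and 87.5 CPM in BPAF. GTF2IP4 (chr7:73154938-73207283, plus strand) measured 83.3, 76.7 and 78.9 CPM in DMSO and 81.6, 80.6 and 79.9 CPM in BPAF. The groups overlapped for both, with log2 fold changes of 0.013 (SE 0.05) and 0.019 (SE 0.04). As a share of the family's counts, GTF2IP20 went from 14.2% ± 1.32 to 16.7% ± 0.342 (SD, n = 3), and GTF2IP1 and GTF2IP4 together held most of the rest. Whether the copies differ in their change was not tested. The GTF2IP20 call held whichever library was left out, and the GTF2IP12 call was lost in 4 of those 6 fits, those without DMSO replicate 1, DMSO replicate 2, BPAF replicate 1 or BPAF replicate 2 (adjusted p = 0.0596 to 0.0977).

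A 90-base stretch of a GTF2I coding exon, chosen in the same way, shows how the copies differ in sequence. Capitals mark bases that differ from GTF2I. GTF2I lies at chr7:74732479-74732568 (plus), GTF2IP1 at chr7:75213500-75213589 (minus), GTF2IP4 at chr7:73179087-73179176 (plus), GTF2IP12 at chr4:119440965-119441054 (minus), GTF2IP13 at chr7:45782645-45782734 (plus) and GTF2IP20 at chr1:223983196-223983285 (minus), in GRCh38.
GTF2I: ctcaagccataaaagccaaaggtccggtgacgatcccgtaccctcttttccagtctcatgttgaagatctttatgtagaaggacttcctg
GTF2IP1: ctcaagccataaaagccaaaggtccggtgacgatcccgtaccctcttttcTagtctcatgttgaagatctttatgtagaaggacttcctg
GTF2IP4: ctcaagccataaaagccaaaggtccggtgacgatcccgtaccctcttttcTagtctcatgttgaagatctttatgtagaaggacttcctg
GTF2IP12: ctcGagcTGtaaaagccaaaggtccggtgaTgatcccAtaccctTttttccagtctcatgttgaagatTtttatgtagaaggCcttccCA
GTF2IP13: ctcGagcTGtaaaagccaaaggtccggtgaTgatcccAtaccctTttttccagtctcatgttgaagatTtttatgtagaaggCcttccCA
GTF2IP20: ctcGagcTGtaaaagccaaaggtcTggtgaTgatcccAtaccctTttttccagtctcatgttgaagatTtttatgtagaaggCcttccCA
GTF2IP1 and GTF2IP4 differed from GTF2I at 1 position and had the same bases as each other. GTF2IP12 and GTF2IP13 differed at 10 positions and had the same bases as each other, and GTF2IP20 differed at 11. Over their whole transcripts, the share of 100-base stretches found in no other gene was 6.66% for GTF2IP1 and 7.89% for GTF2IP4, and 80.2% for GTF2IP12, 92.3% for GTF2IP13 and 76.9% for GTF2IP20. The remaining 2 tested copies, GTF2IP14 and GTF2IP23, shared no 100-base stretch with another gene. They were at 0.526 ± 0.226 and 0.938 ± 0.269 CPM in DMSO and 0.865 ± 0.417 and 0.696 ± 0.305 CPM in BPAF, with log2 fold changes of 0.71 (SE 0.43) and -0.41 (SE 0.38). GTF2I itself went from 187 ± 6.76 to 206 ± 2.23 CPM and rose by 0.14 (SE 0.03, adjusted p = 0.014), a call that was lost without DMSO replicate 2 and without BPAF replicates 1 or 3 (adjusted p = 0.0568 to 0.0626).

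**Figure D3:**
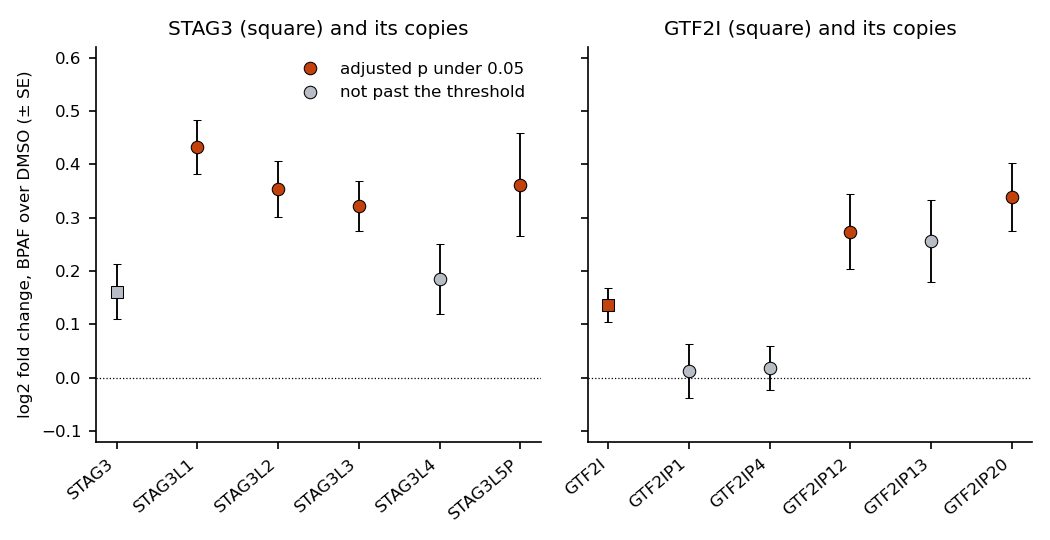
Log2 fold change of BPAF over DMSO (vertical axis, ± SE) for STAG3 and GTF2I (squares) and their copies (circles), with orange for an adjusted p under 0.05. All 5 STAG3 copies shown lie above 0.15, while GTF2IP1 and GTF2IP4 lie at 0 within their SE and GTF2IP12, GTF2IP13 and GTF2IP20 lie at 0.26 to 0.34.

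The NPIP genes, all on chromosome 16 where tested, held the largest summed level of any family, 771 ± 40.5 CPM in DMSO and 936 ± 5.83 CPM in BPAF (SD, n = 3). All 18 tested NPIP genes had a log2 fold change above 0, and 8 rose: 6 of 10 tested NPIPB genes and 2 of 8 tested NPIPA genes. NPIPB3 (chr16:21402237-21448567, minus strand) had the highest level of any member per length, 182 TPM on average. It measured 154, 148 and 160 CPM in DMSO and 189, 177 and 199 CPM in BPAF, a log2 fold change of 0.29 (SE 0.04, adjusted p = 8.09e-04). NPIPB12 (chr16:29483642-29505999, minus strand) had the largest rise of the called NPIP genes. It measured 56.1, 54.4 and 64.5 CPM in DMSO and 79.0, 75.8 and 83.0 CPM in BPAF, a log2 fold change of 0.44 (SE 0.06, adjusted p = 5.62e-04). NPIPB13 (chr16:30222937-30254510, minus strand) went from 77.6 ± 7.2 to 95.4 ± 1.85 CPM, which was 0.30 higher on the log2 scale. The calls of NPIPB3, NPIPB12 and NPIPB13 held whichever library was left out.

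NPIPB4 (122.7 TPM on average) went from 168 ± 16.4 to 213 ± 4.75 CPM, NPIPB5 (109 TPM) from 152 ± 11 to 175 ± 3.49 CPM, and NPIPB11 from 16.7 ± 0.318 to 21.2 ± 2.43 CPM. Their log2 fold changes were 0.35, 0.21 and 0.34, with adjusted p-values of 0.033, 0.00845 and 0.0193. NPIPA1 rose by 0.16 (SE 0.04, adjusted p = 0.0369) and NPIPA5 by 0.31 (SE 0.07, adjusted p = 0.0161). These 5 calls depended on single libraries. That of NPIPB5 was lost without DMSO replicate 1 or BPAF replicate 1, that of NPIPA5 without those or BPAF replicate 3, and that of NPIPB4 without DMSO replicate 1 or any one BPAF replicate. NPIPB11 kept its call only without BPAF replicate 1, and NPIPA1 only without DMSO replicate 2. The highest adjusted p in these fits was 0.0556 for NPIPB5, 0.0807 for NPIPA5, 0.152 for NPIPB4, 0.104 for NPIPB11 and 0.178 for NPIPA1. The other NPIP genes with at least 10 TPM were NPIPA7, NPIPA8 and both NPIPA9 identifiers. Their log2 fold changes ran from 0.019 to 0.14, and the groups overlapped in each.

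NPIPA1 and NPIPA5 both rose and have nearly the same sequence around their RefSeq start. The RefSeq promoter windows (GRCh38.p14, 250 bases before to 50 after the start) lie at chr16:14937193-14937492 (plus) for NPIPA1 and chr16:15378245-15378544 (minus) for NPIPA5. They differ at 1 of 300 positions, written A206T with positions counted from 1 at the 5′ end and the NPIPA1 base first. The differing base is the capital. Both windows lie inside the GENCODE spans of the genes, chr16:14922802-14952060 for NPIPA1 and chr16:15363624-15381047 for NPIPA5. The RefSeq starts are thus not the starts of those spans. This pair is shown because both copies rose, which was known when it was chosen. Other copies had windows as alike or nearly so, with 0 of them called: TBC1D3 and TBC1D3L (100% identity), GOLGA8O and GOLGA8R (99.67%), and NPIPA8 and NPIPA9 (97.33%).
NPIPA1: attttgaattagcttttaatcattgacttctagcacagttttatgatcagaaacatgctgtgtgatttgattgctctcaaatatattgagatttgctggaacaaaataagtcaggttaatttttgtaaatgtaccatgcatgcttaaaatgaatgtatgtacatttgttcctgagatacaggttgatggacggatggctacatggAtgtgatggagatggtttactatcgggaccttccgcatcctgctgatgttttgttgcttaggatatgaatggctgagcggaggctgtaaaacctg
NPIPA5 measured 16.3, 17.9 and 17.1 CPM in DMSO and 21.4, 20.6 and 21.5 CPM in BPAF, and NPIPA1 measured 56.6, 58.8 and 57.1 CPM in DMSO and 65.9, 63.2 and 63.6 CPM in BPAF. Of the 84 tested members, 38 had a promoter entry (43 entries), among them 9 of the 23 that rose. The estrogen response element, GGTCA and TGACC with 3 bases between them, was searched on both strands. It occurred in 0 of 43 member entries and in 0.06% of all 35116 entries. The single arm AGGTCA, which can overlap the full element, occurred in 11 of 43 member entries and in 13.83% of all entries. The members with that arm were 8 TBC1D3 genes, NBPF11, NBPF12 and NPIPB12, of which NBPF11 and NPIPB12 rose. Many of the TBC1D3 windows are near copies of one another, so these entries are not separate sequences. Identity was 99% for TBC1D3 with TBC1D3H and for TBC1D3D with TBC1D3K, and 96.67% for TBC1D3B with TBC1D3D. A match is a run of letters and not a bound site.

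**Figure D4:**
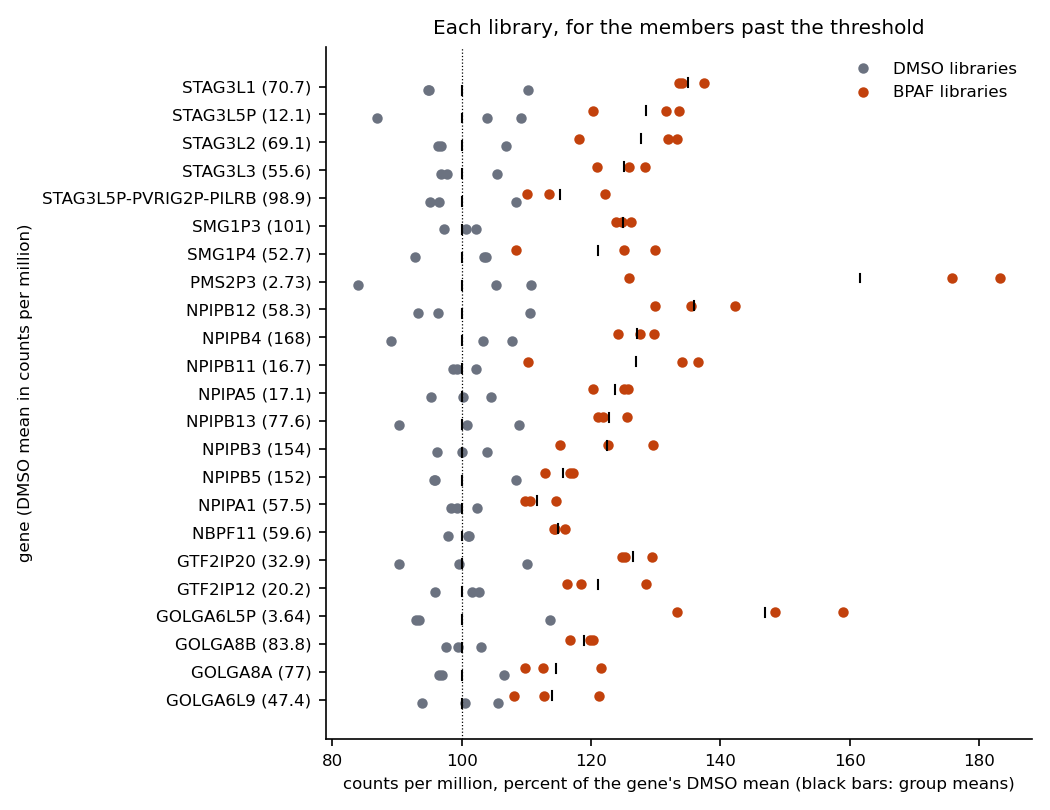
CPM of each library as a percent of the gene's DMSO mean (horizontal axis) for the 23 members past the threshold (vertical axis, with the DMSO mean in brackets), with black bars for group means. For every gene the 3 orange BPAF points lie to the right of the 3 grey DMSO points, and PMS2P3 and GOLGA6L5P, the genes with the fewest counts, lie farthest right.

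The SMG1P genes are copies of SMG1 on chromosome 16, and several overlap NPIP genes. SMG1P3 (chr16:21446683-21520444, minus strand) had the smallest adjusted p of all members. It measured 102, 103 and 98.4 CPM in DMSO and 125, 126 and 128 CPM in BPAF. Its log2 fold change was 0.32 (SE 0.04, adjusted p = 5.31e-05), and its call held whichever library was left out. SMG1P4 (chr16:21879338-21919156, minus strand) went from 52.7 ± 3.27 to 63.9 ± 5.97 CPM, which was 0.28 higher on the log2 scale (SE 0.07, adjusted p = 0.0237), lost without DMSO replicate 1 and without BPAF replicates 1 or 3 (adjusted p = 0.0933 to 0.113). SMG1P1, the most abundant copy per length (38.3 TPM), measured 231, 215 and 235 CPM in DMSO and 246, 237 and 250 CPM in BPAF. Its groups did not overlap, and its log2 fold change of 0.11 (SE 0.03) had an adjusted p of 0.0696. SMG1P2, SMG1P5, SMG1P6 and SMG1P7 had log2 fold changes of 0.023, -0.06, 0.14 and 0.23, none past the threshold. SMG1 itself was 0.06 (SE 0.03) higher (adjusted p = 0.289), at 308 ± 8.60 and 322 ± 9.86 CPM.

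SMG1P3 shares exons on its strand with NPIPB3, SMG1P4 with NPIPB4 and SMG1P1 with NPIPB5, so reads there could belong to either gene. The log2 fold change of the summed pair was 0.30 (SE 0.03) for NPIPB3 with SMG1P3, 0.33 (SE 0.04) for NPIPB4 with SMG1P4 and 0.15 (SE 0.03) for NPIPB5 with SMG1P1. The sum of NPIPB3 and SMG1P3 measured 255.5, 251 and 258 CPM in DMSO and 314, 303 and 327 CPM in BPAF. The groups did not overlap in any of the 3 pairs. These sums were computed after the values had been seen.

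Of the 45 GOLGA6 and GOLGA8 genes, all on chromosome 15 where tested, 11 were tested and 4 rose. GOLGA8B (chr15:34525207-34588503, minus strand) measured 81.8, 83.3 and 86.3 CPM in DMSO and 100.4, 97.8 and 101 CPM in BPAF. Its log2 fold change was 0.25 (SE 0.04, adjusted p = 8.90e-04), and its call held whichever library was left out. Its neighbour GOLGA8A (chr15:34379068-34437466, minus strand) went from 77.0 ± 4.37 to 88.3 ± 4.74 CPM, which was 0.20 higher on the log2 scale (SE 0.05, adjusted p = 0.0177). GOLGA6L9 rose by 0.19 (SE 0.06, adjusted p = 0.0458) from 47.4 ± 2.77 CPM. GOLGA6L5P rose by 0.56 (SE 0.16, adjusted p = 0.0432) from 3.64 ± 0.431 to 5.35 ± 0.472 CPM. The GOLGA8A call was lost without DMSO replicate 1, DMSO replicate 3 or BPAF replicate 3 (adjusted p = 0.0722 to 0.114). GOLGA6L5P kept its call in 2 of the 6 leave-one-out fits, those without DMSO replicate 3 or BPAF replicate 2, and GOLGA6L9 in 1, that without BPAF replicate 2. Their highest adjusted p-values in these fits were 0.169 and 0.224. The 7 tested members that were not called had at most 8.29 CPM in either group, with log2 fold changes from -0.21 to 0.60. GOLGA2, the golgin they resemble, measured 76.4 ± 2.99 CPM in DMSO and 76.6 ± 2.74 CPM in BPAF.

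The tested NBPF genes lie on chromosome 1, and most of their differences were small. Of 13 tested, 11 had a log2 fold change above 0, 7 had groups that did not overlap with BPAF higher, and 1 rose. That gene was NBPF11 (chr1:148102046-148152322, minus strand). It measured 60.3, 60.2 and 58.4 CPM in DMSO and 68.3, 68.2 and 69.2 CPM in BPAF, a log2 fold change of 0.20 (SE 0.04, adjusted p = 0.00798), and the call held whichever library was left out. NBPF12, at 60.8 ± 1.94 and 66.7 ± 1.5 CPM, had a log2 fold change of 0.13 (SE 0.04) with an adjusted p of 0.0843. NBPF20 had a log2 fold change of 0.15 (adjusted p = 0.103). NBPF14, the most abundant per length at 45.7 TPM, had 0.14 (SE 0.06, adjusted p = 0.216). The rest of the family with at least 10 TPM, NBPF1, NBPF8, NBPF9, NBPF10 and NBPF26, had log2 fold changes from 0.052 to 0.15. NBPF3, at 1.26 ± 0.109 CPM in DMSO and 0.828 ± 0.0897 CPM in BPAF, was 1 of the 2 tested members with all BPAF libraries below all DMSO libraries (log2 fold change -0.60, adjusted p = 0.297). The other was TBC1D3G.

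Of the 7 tested PMS2P genes, copies on chromosome 7 of the mismatch repair gene PMS2, PMS2P3 rose. It measured 3.02, 2.87 and 2.29 CPM in DMSO and 4.99, 3.43 and 4.79 CPM in BPAF, a log2 fold change of 0.69 (SE 0.19, adjusted p = 0.0358). That call was lost in 5 of 6 leave-one-out fits, the exception being the fit without BPAF replicate 2 (highest adjusted p = 0.178, without BPAF replicate 1). PMS2P1, the most abundant copy at 93.3 TPM, measured 54.5, 51.2 and 55.2 CPM in DMSO and 51.5, 49.4 and 53.1 CPM in BPAF, so its groups overlapped (log2 fold change -0.06, SE 0.05). The span of PMS2P1 overlaps that of STAG3L5P on the opposite strand, and those of PMS2P2 and PMS2P7 overlap STAG3L1 and STAG3L3 in the same way. The libraries were strand-specific per the labels, and the sources used here do not say whether counting used the strand. PMS2P2 and PMS2P7 had log2 fold changes of 0.06 (SE 0.15) and 0.17 (SE 0.15), and PMS2P13 0.76 (SE 0.38, adjusted p = 0.276). PMS2 itself was at 47.8 ± 0.195 and 50.4 ± 2.54 CPM (log2 fold change 0.08, adjusted p = 0.435).

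The 9 tested TBC1D3 genes lie on chromosome 17, and 0 of them passed the threshold. TBC1D3E (chr17:38127951-38138862, plus strand), the most abundant per length at 11.22 TPM, came nearest. It measured 17.2, 15.8 and 16.4 CPM in DMSO and 22.4, 18.4 and 19.2 CPM in BPAF, a log2 fold change of 0.28 (SE 0.08, adjusted p = 0.0509). TBC1D3 had a log2 fold change of 0.37 (SE 0.15), TBC1D3L 0.13 (SE 0.10), TBC1D3H 1.11 (SE 0.40) and TBC1D3G -0.84 (SE 0.34), with adjusted p-values from 0.11 to 0.517. TBC1D3G measured 1.56, 0.924 and 1.17 CPM in DMSO and 0.647, 0.834 and 0.566 CPM in BPAF. TBC1D3H measured 0.503, 0.292 and 0.926 CPM in DMSO and 1.29, 0.834 and 1.57 CPM in BPAF. These low copies of 1 family thus had opposite signs, while the family sum was 46.0 ± 1.95 and 52.5 ± 3.07 CPM. The share of 100-base stretches found in no other gene was 0% for TBC1D3G and 0.254% for TBC1D3H. Their single values thus depend on how shared reads were assigned. USP6, a gene that carries a TBC1D3-derived part, measured 0.569 ± 0.15 and 1.16 ± 0.419 CPM (adjusted p = 0.117). TBC1D30, TBC1D31 and TBC1D32 had log2 fold changes of 0.34 (SE 0.44), 0.0076 (SE 0.06) and 0.26 (SE 0.11).

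PDPK2P, a copy of PDPK1 on chromosome 16, measured 43.1, 39.4 and 43.3 CPM in DMSO and 47.0, 40.7 and 47.7 CPM in BPAF, with overlapping groups (log2 fold change 0.11, adjusted p = 0.348). PDPK1 was at 96.9 ± 2.48 and 98.0 ± 2.53 CPM. GTF2IRD2 measured 1.51, 2.19 and 2.63 CPM in DMSO and 3.19, 2.01 and 3.88 CPM in BPAF (log2 fold change 0.53, SE 0.26, adjusted p = 0.259), and GTF2IRD2B 4.51 ± 0.510 and 5.10 ± 0.351 CPM. The counts of the untested GTF2IRD2P1 were 2, 0 and 7 in the DMSO libraries against 9, 7 and 17 in the BPAF libraries. With it, the summed TPM of the 3 GTF2IRD2 genes was 10.03, 6.33 and 30.1 in DMSO and 34.2, 31.2 and 50.5 in BPAF, a difference of 1.60 in mean log2 TPM with no overlap, where the summed counts gave 0.35 with overlapping groups. GTF2IRD1, the single-copy relative, measured 7.92 ± 0.488 and 7.36 ± 0.453 CPM. Of the 8 parent or related single-copy genes, then, GTF2I alone passed the threshold, and the median log2 fold change of the 8 was 0.07.

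Other duplicated families were read in the same fit for comparison. Of 81 tested genes of families such as CROCCP, SPDYE, PKD1P, ANKRD36 and LRRC37, 8 rose (9.88%) and 2 fell, with a median log2 fold change of 0.10. Those that rose were CROCCP2, CROCCP3, NSUN5P1, PKD1P5, ANKRD36B, SPDYE2B, SPDYE3 and LRRC37A4P, and those that fell were SULT1A4 and the readthrough gene BOLA2-SMG1P6. BOLA2-SMG1P6 shares exons with SMG1P6 and fell by 0.17 on the log2 scale, where SMG1P6 had a log2 fold change of 0.14 (adjusted p = 0.174). The number that rose was 4 without DMSO replicate 1, 2 without BPAF replicate 1 and 4 without BPAF replicate 3. The number that fell was 1 without DMSO replicate 3 or any one of the BPAF replicates. Among all unprocessed pseudogenes outside the described families, 9.32% of 311 rose, with a median log2 fold change of 0.13. Among long intergenic and antisense RNAs 5.18% of 1565 rose, with a median of 0.17, and among protein-coding genes outside the families 1.78% of 12284 rose, with a median of -0.010. Within the families, 12 of 51 protein-coding members rose and 10 of 31 unprocessed pseudogenes rose. The part of gene class in the members' rise was not tested.

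Many of the deposited counts of these genes were not whole numbers, and the sources used here do not say why. Counts with decimals in all 6 libraries were found for 72 of 84 tested members (85.7%) and all 23 that rose, against 33.0% of all tested features. A median of 34.7% of a tested member's 100-base transcript stretches occurred in no other GENCODE gene, against 100% over all tested features, and 57 of 84 members were under 50%. Of those 57 members 17 rose. Of the 27 members with at least 50% own sequence, which include TBC1D30, TBC1D31 and TBC1D32, 6 rose. The median log2 fold change was 0.17 in the first set and 0.19 in the second. Outside the families, 39 of 768 features under 50% rose (5.08%), with a median of 0.043. Of the 14265 features there with at least 50%, 325 rose (2.28%), with a median of -0.0008. By family the median own sequence was lowest for TBC1D3 (7.34%) and NPIP (12.2%) and highest for GTF2IP (80.2%), leaving aside TBC1D30, TBC1D31 and TBC1D32. The part of read assignment in the single-copy values was not tested.

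**Figure D5:**
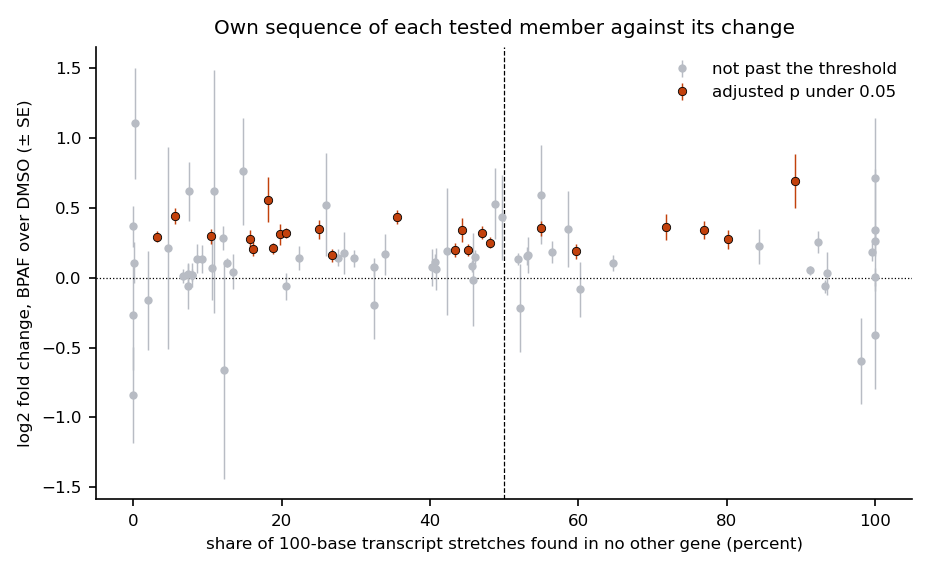
Log2 fold change of BPAF over DMSO (vertical axis, ± SE) against the share of a gene's 100-base transcript stretches that occur in no other gene (horizontal axis, percent), for the 84 tested members, with a dashed line at 50%. Members that rose (orange) stand on both sides of the line, 17 below and 6 above.

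By chromosome, 10 of 26 tested members rose on chromosome 16, 6 of 20 on chromosome 7, 4 of 11 on chromosome 15, 2 of 14 on chromosome 1, the single one on chromosome 4, and 0 of 9 on chromosome 17. Over all tested features, members included, 5.18% rose on chromosome 16, 3.81% on chromosome 7, 3.05% on chromosome 15 and 3.79% on chromosome 17. On chromosomes 1 and 4 the shares were 2.23% and 1.78%. The median log2 fold change of the features outside the families on these chromosomes was 0.032 on chromosome 16, -0.0068 on chromosome 7, 0.0064 on chromosome 15 and 0.012 on chromosome 17. On chromosomes 1 and 4 it was -0.0046 and -0.011. With exon length and GC content fitted as an offset, the median of the members was 0.11 and that of all features -0.06, and 16 members rose while 1, PMS2P1, fell by 0.17 on the log2 scale (adjusted p = 0.02). Over all 15490 features that fit called 285 higher and 2088 lower, where the fit without the offset called 411 and 527.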

How the data were processed

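RNA was sequenced from 3 DMSO and 3 BPAF libraries of Jurkat cells. Per the labels' protocols, oligo(dT) beads enriched the mRNA, and strand-specific paired-end libraries were read on an Illumina NovaSeq instrument. FastQC, cutadapt, HISAT2 and featureCounts, and GRCh38 and hg38 as builds, are listed in the submitters' processing notes, with no version. The deposited values are estimated counts per gene, many with decimals, and TPM summing to the same total in each library. The sources used here do not say how the decimals and the TPM arose or which annotation was counted.

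Estimated counts were rounded to whole numbers. After filterByExpr and TMM scaling, features were tested in edgeR 4.0.16 by its quasi-likelihood F test (R 4.3.3, robust, no covariate), with Benjamini-Hochberg adjustment over all 15490 tested features and a threshold of 0.05. Levels are TMM-scaled CPM with the SD over 3 libraries. Family sums were fitted in the same way with the members replaced by their sum. Depth was 20253656 to 22617613 counts per library, and the number of libraries limits the precision. Every pair of libraries differed by more than sampling noise, with a chi-square of 2.37 to 7.77 per degree of freedom. The replicate numbers were not taken as pairs.

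Symbols came from the reference gene table, and coordinates from GENCODE release 29 (GRCh38), which held all 161 members. Transcript stretches of 100 bases were compared between all GENCODE genes in Python 3.11.15, and 90-base windows were aligned with edlib 1.3.9.post1. Promoters are RefSeq windows. The fit was tested on simulated data.

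Named genes were every member past the threshold, each family's most abundant member per length and up to 3 with the smallest p, members with at least 10 TPM, the parent genes, and other duplicated genes past the threshold. The members and lists were chosen with earlier results of these data known. Alternatives were other scalings and filters, DESeq2 1.42.0, limma-voom (limma 3.58.1), limma on log2 TPM plus 1 or 0.1, a replicate block, counts rounded down, a length and GC offset, each library left out, and other ways to sum a family. Protein-coding genes only, and sums over pairs of genes with shared exons, were chosen after seeing the data.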

Additional observations from a re-analysis of the deposited data

How the results depend on the processing

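The number of members that rose stayed between 16 and 26 under other scalings, other filters, DESeq2, limma-voom, counts rounded down and the length and GC offset. No member that rose changed sign under any setting. With the replicate block 24 members rose, 21 of them the same genes. Libraries with the same number had deviations correlated at -0.043 to 0.014 over all features and at -0.157, 0.040 and 0.371 over the members for numbers 1, 2 and 3. The number that rose was 0 and 0 with limma on log2 TPM plus 1 and plus 0.1, 13 with protein-coding genes only, and 11 to 19 with a library left out. The offset called 1 member lower. For parent genes that rose, the count was 0 and 0 on TPM, 0 with the offset, and 0 to 1 with a library left out. For other duplicated genes that rose it was 0 and 0 on TPM, 3 with protein-coding genes only, and 2 to 8 with a library left out. Those that fell numbered 1 with upper quartile scaling, 0 with DESeq2, 1 with DESeq2 without independent filtering, 1 with limma-voom, 0 and 0 on TPM, 1 with protein-coding genes only, and 1 to 2 with a library left out.

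On summed TPM the log2 change was 0.28 for GOLGA6 and GOLGA8, 0.20 for GTF2IP, 1.60 for GTF2IRD2, 0.15 for NBPF, 0.16 for PMS2P, 0.39 for STAG3L, 0.19 for TBC1D30 to TBC1D32 and 0.25 for all families. Over all tested features the median log2 fold change was 0.078 on TPM plus 1 and 0.089 on TPM plus 0.1, against 0.0019 on counts. For the tested members these medians were 0.18 and 0.21, against 0.18 on counts. On summed counts with the parent gene in the sum, the log2 change was 0.12 for GTF2IRD2, 0.13 for SMG1P, 0.16 for GOLGA6 and GOLGA8 and 0.17 for all families. On summed counts without the member with the most counts, it was 0.16 for GTF2IP, 0.65 for GTF2IRD2, 0.19 for PMS2P, 0.22 for SMG1P and 0.26 for TBC1D30 to TBC1D32. The cause of these differences was not tested, beyond the change in genes summed. Copies under 10 CPM had wide errors, so their single values are the least certain.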
